A study of Homo sapiens with 2 samples.

Results

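ALPP, ALPG and ALPL encode alkaline phosphatases, enzymes held on the outer cell surface by a glycosylphosphatidylinositol (GPI) anchor that remove phosphate from many substrates. The genes were chosen by symbol, with their levels in these libraries already known, so every level below is a description. All 3 were found among the 36601 genes of both count tables, and all 3 passed a minimum of 100 UMIs. A UMI, a unique molecular identifier, marks 1 captured transcript. The cells were H9, an embryonic stem cell line long established, kept naive in RSeT to which DZNep (10 nM) and TSA (5 nM) had been added. A 6-FAM-labelled oligonucleotide was delivered to each group at 25 nM with Lipofectamine Stem. In the ASO-L1 group it was the LINE1 antisense strand, and in the control group, SO-L1, the sense strand. For the first 24 hours both groups also had the survival supplements emricasan (5 µM), trans-ISRIB (0.7 µM) and Y-27632 (10 µM). At 48 hours 100000 FAM-positive cells per group were sorted, and 12000 were aimed for in each 10x 3′ v3 library. Each group has 1 library, so differences between groups lack any replicate check and were not tested. Ranges in parentheses are exact 95% intervals of counting error only.

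The family has 4 members in human. ALPL is the tissue-nonspecific enzyme of bone, liver and kidney, and its activity is the classical histochemical mark of pluripotent stem cells. ALPP is the placental enzyme, made by syncytiotrophoblast. ALPG, also called ALPPL2, is the germ-cell enzyme and a known surface marker of naive human pluripotent cells. ALPI, the intestinal enzyme, was used here only for comparison. All need zinc, which SLC30A5, SLC30A6 and SLC30A7 carry into the secretory path, and all receive their anchor from the PIG, DPM and PGAP gene products.

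ALPP (ENSG00000163283), ALPG (ENSG00000163286) and ALPI (ENSG00000163295) are neighbours on chromosome 2, all on the plus strand. In RefSeq on GRCh38.p14, ALPP spans positions 232378751 to 232382889 and ALPG spans 232406844 to 232410714, with 24 kb between them. ALPI follows 45.4 kb further on, at 232456153 to 232460753. ALPL (ENSG00000162551) lies alone on chromosome 1, at 21508984 to 21578410, also on the plus strand. The 250 bases before each start on chromosome 2 are shown because the levels of ALPP and ALPG moved together. Capitals mark the motifs that were found on either strand. The first is TTTAAA, close to a TATA box. Next comes AGGTCA, the half-site of many nuclear receptors. The last is GGGCGG, known as a GC box. The windows are chr2:232378501-232378750 for ALPP, chr2:232406594-232406843 for ALPG and chr2:232455903-232456152 for ALPI, all on the plus strand and credited to RefSeq.
ALPP: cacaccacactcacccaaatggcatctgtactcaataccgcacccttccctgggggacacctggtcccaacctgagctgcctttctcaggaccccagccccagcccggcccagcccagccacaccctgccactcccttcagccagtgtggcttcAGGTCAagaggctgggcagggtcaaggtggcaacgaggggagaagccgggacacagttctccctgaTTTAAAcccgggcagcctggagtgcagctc
ALPG: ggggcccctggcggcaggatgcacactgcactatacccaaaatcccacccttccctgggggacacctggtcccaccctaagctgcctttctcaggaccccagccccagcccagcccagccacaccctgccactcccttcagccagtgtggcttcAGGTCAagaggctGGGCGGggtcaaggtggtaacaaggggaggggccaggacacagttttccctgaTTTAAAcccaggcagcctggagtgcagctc
ALPI: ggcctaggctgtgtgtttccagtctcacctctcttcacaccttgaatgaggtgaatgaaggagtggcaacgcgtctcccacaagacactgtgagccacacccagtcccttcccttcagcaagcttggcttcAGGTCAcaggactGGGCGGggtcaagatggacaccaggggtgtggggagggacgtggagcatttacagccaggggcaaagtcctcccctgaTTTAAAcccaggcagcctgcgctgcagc
The ALPP and ALPG windows were identical at 84.4% of aligned positions, against 56.6% for ALPP with ALPI and 57.9% for ALPG with ALPI. Both held TTTAAA beginning 30 bases and AGGTCA beginning 96 bases before the start. ALPI held the same letters 28 and 119 bases before its start. GGGCGG lay 83 bases before the start of ALPG and 106 bases before that of ALPI, and it was not in the ALPP window. Of 35116 RefSeq promoter windows of the same length, 11.3% held TTTAAA, 12.1% held AGGTCA and 42.6% held GGGCGG. The core that paired-like homeodomain proteins bind, TAATCC, was in 5.62% of windows and in none of these. RefSeq lists 3 starts for ALPL, whose windows matched the ALPP and ALPG windows at 42.2% to 50.2% of aligned positions. Only the second of them, with the window chr1:21509173-21509422, held any of the motifs: GGGCGG at 4 places and TATAAA, which 10.7% of all windows hold, 29 bases before the start on the minus strand. GCCNNNGGC, the core of an AP-2 site, was found 2 times in that window, 1 time each for ALPG and ALPI, not for ALPP, and in 19.8% of all windows. These matches describe letters, and they were chosen with the sequences in view.

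Because ALPP and ALPG are close copies, their last 500 transcript bases, where this 3′ method reads, were compared in GENCODE 29. Over whole transcripts the 2 genes were identical at 75.3% of aligned positions, and over the last 500 bases at 49.9%. Each of the 4 family members had 411 stretches of 90 bases there, and 100% of them occurred in no other gene. How the authors' counting treated shared reads was not given in the sources used here. AC068134.1, an antisense gene inside ALPP, had 23 UMIs in ASO-L1 and 4 in SO-L1.

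Of 13070 SO-L1 barcodes 6553 were kept, and of 11659 ASO-L1 barcodes 9084 were kept, by at least 1000 genes and under 20% of UMIs from mitochondrial (MT) genes. Kept cells held a median of 42314 UMIs (SO-L1) and 53959.5 UMIs (ASO-L1). They were split at an MT share of 2%, which put 1857 SO-L1 and 2531 ASO-L1 cells below it and 4696 and 6553 at or above it. Median UMIs below 2% were 33612 and 44720, and at 2% or more 45154 and 56296. The summed level of 6 pluripotency genes, POU5F1, SOX2, NANOG, LIN28A, TDGF1 and DPPA4, was 2270 CPM in SO-L1 and 2163 CPM in ASO-L1, where CPM is the count scaled to a fixed total of UMIs per library. These defining markers of the labelled cell type were thus present in both, but not evenly over the cells described below.

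The libraries shared 6105 barcode sequences, and this touched the members directly. Of these, 5032 belonged to kept ASO-L1 cells while in SO-L1 they had under 1000 genes, with a median of 1.34% of the ASO-L1 cell's UMIs. Where the ASO-L1 cell had 100 or more ALPG UMIs, 88.6% of the SO-L1 barcodes (421 of 475) also had ALPG. Where the ASO-L1 cell had 0 ALPG UMIs, 0.846% did. These shallow barcodes were not among the kept SO-L1 cells, but 274 barcodes were kept in both libraries. Without those 274, the ratios of ASO-L1 to SO-L1 were 10.3 for ALPP, 3.77 for ALPG and 1.13 for ALPL, beside 10.8, 3.97 and 1.15 with them. Leaving out all shared barcodes removed 5308 of the kept ASO-L1 cells, which were deeper than the rest, and gave 5.53, 2.33 and 1.07. How far shared barcodes set the levels was not tested further.

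The levels of the members differed widely. These are UMIs counted at the 3′ end, with no scaling by gene length, so levels are compared between genes as UMI counts. How fully the transcripts of each gene were captured was not measured. ALPG was the most abundant member in both libraries, at 100.7 CPM (99.5 to 101.9) in SO-L1 and 399.7 CPM (398.0 to 401.5) in ASO-L1. ALPL came next, at 41.1 CPM (40.3 to 41.9) and 47.2 CPM (46.6 to 47.8). ALPP was the least abundant of the 3, at 1.31 CPM (1.18 to 1.45) and 14.1 CPM (13.8 to 14.4). ALPI was close to undetected, with 5 UMIs in all kept SO-L1 cells and 47 in all kept ASO-L1 cells. The order ALPG, ALPL, ALPP held over all kept cells of both libraries, with intervals that did not overlap. It did not hold in the 4696 SO-L1 cells at 2% MT or more. There ALPL was at 44.9 CPM and ALPG at 22.4 CPM, with MT genes left out of the total.

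ALPP and ALPG were higher in the ASO-L1 library and ALPL was nearly level. A fold of 1.5 or more served as the limit. Of 22863 genes with 100 or more UMIs over all kept cells, 16.6% passed it upwards, with ASO-L1 the higher library, and 17.1% passed it downwards. ALPP and ALPG were in the first set and ALPL in neither. Of all genes, 0.254% had a larger ratio than ALPP. ALPI was 5.15-fold higher (2.06 to 16.6), on few UMIs.

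**Figure D1:**
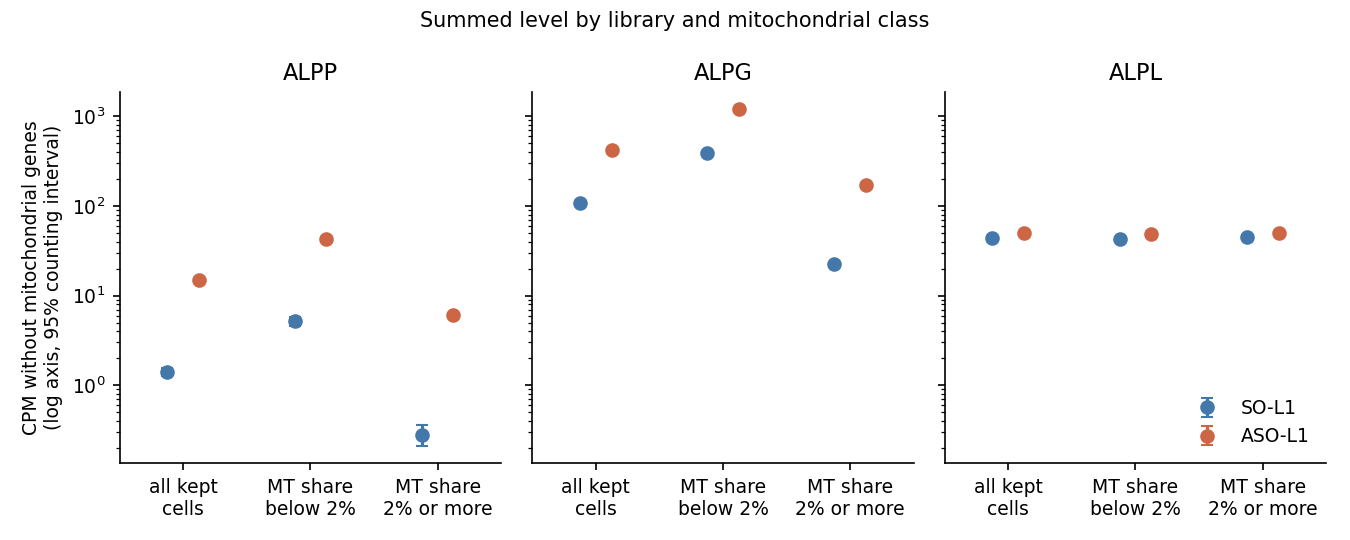
Level of ALPP, ALPG and ALPL (CPM without mitochondrial genes, log axis) in SO-L1 (blue) and ASO-L1 (red), in all kept cells and in both mitochondrial classes. Points are sums over 1 library and bars are 95% counting intervals. ALPP and ALPG are higher in ASO-L1 and in cells below 2%, and ALPL lies between 42.3 and 50.6 CPM in both classes of both libraries.

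The mitochondrial class separated ALPP and ALPG far more than it separated ALPL. For these comparisons MT genes were left out of the total. In SO-L1, ALPP was at 5.15 CPM below 2% MT and 0.277 CPM at 2% or more, a ratio of 18.6 (13.9 to 25.3). ALPG was at 392 CPM and 22.4 CPM there, a ratio of 17.5 (16.9 to 18.1). In ASO-L1, ALPP was at 42.9 and 6.02 CPM (ratio 7.12, 6.77 to 7.50) and ALPG at 1206 and 173 CPM (ratio 6.96, 6.89 to 7.03). So within each library the ratios of ALPP and ALPG between classes nearly matched in all kept cells. Without any shared barcode they lay further apart, at 31.8 (21.1 to 50.1) and 24.8 (23.7 to 25.8) in SO-L1 and at 11.9 (10.5 to 13.6) and 9.12 (8.92 to 9.32) in ASO-L1. ALPL was at 42.3 and 44.9 CPM in SO-L1 (ratio 0.944, 0.902 to 0.987) and at 48.5 and 50.6 CPM in ASO-L1 (0.959, 0.930 to 0.988). Without any shared barcode the ASO-L1 ratio of ALPL was 0.690 (0.635 to 0.748). The pluripotency genes moved with the class too: their sum below 2% was 1369 CPM, beside 2593 CPM at 2% or more, in ASO-L1, where all 6 were at least 1.5-fold lower. In SO-L1 the sums were 2114 and 2547 CPM and none of the 6 passed that limit. Their part in the levels of ALPP and ALPG was not tested. Across all genes, 20% were at least 1.5-fold higher below 2% in SO-L1 and 27.1% in ASO-L1. Another 12.9% of genes in ASO-L1 were at least 1.5-fold lower, and no member was. Cells below 2% gave 84.9% of ALPP UMIs, 84.1% of ALPG UMIs and 22.3% of ALPL UMIs in SO-L1. In ASO-L1 they gave 69.6%, 69.1% and 23.5%. In SO-L1, the 885 barcodes at 2% or more that also occur in ASO-L1 had 42.2 CPM of ALPG, and the other 3811 had 16.3 CPM.

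Compared within a class, the libraries differed more at high MT share for ALPP and ALPG, and about equally in both classes for ALPL. At 2% or more, ASO-L1 over SO-L1 was 21.7 for ALPP (16.6 to 28.97), 7.73 for ALPG (7.50 to 7.97) and 1.13 for ALPL (1.10 to 1.16). Below 2% the ratios were 8.33 (7.41 to 9.38), 3.08 (3.03 to 3.12) and 1.15 (1.09 to 1.20). Over all genes it was the other way, with 12.2% at least 1.5-fold higher at 2% or more and 22.9% below. Leaving out all shared barcodes turned the ALPL ratio below 2% to 0.799 (0.731 to 0.873). It left ALPP at 6.89 and ALPG at 2.71 there.

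**Figure D2:**
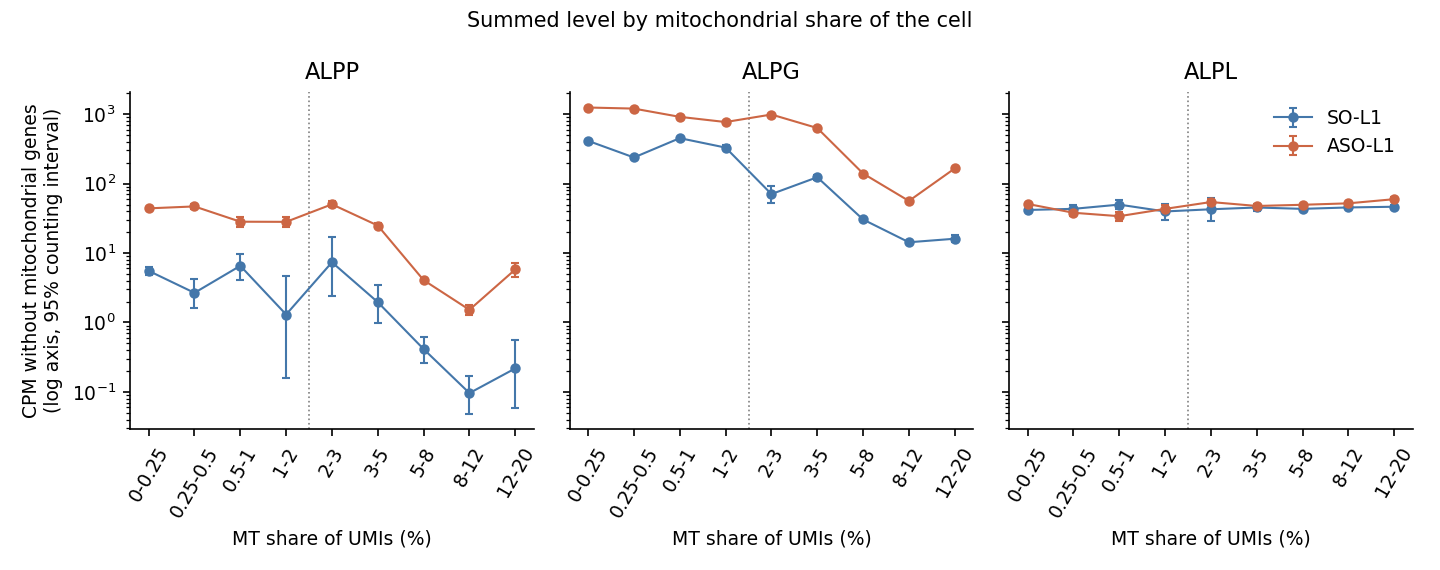
Level of each gene (CPM without mitochondrial genes, log axis) against the cell's mitochondrial share of UMIs, in SO-L1 (blue) and ASO-L1 (red), with 95% counting intervals and a dotted line at 2%. In ASO-L1, ALPP and ALPG are high up to 5% and low from 5% to 12%, while ALPL stays between 33.9 and 59.7 CPM in every bin.

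Finer bins of MT share showed no step at 2% for ALPG in ASO-L1. Its level was 1248 CPM below 0.25%, 771 CPM from 1% to 2%, 989 CPM from 2% to 3% and 632 CPM from 3% to 5%. It then dropped to 140 CPM from 5% to 8% and 56.3 CPM from 8% to 12%. From 12% to 20% it was at 165 CPM, over 344 cells. ALPP in ASO-L1 followed the same course, with 50.4 CPM from 2% to 3%, 24.9 CPM from 3% to 5%, 4.07 CPM from 5% to 8% and 1.52 CPM from 8% to 12%. In SO-L1, ALPG was already lower from 2% to 3%, at 70.7 CPM over 59 cells with a median of 3512 UMIs, and at 124 CPM from 3% to 5%. It was at 14.3 CPM from 8% to 12%, the bin that held 2646 cells. ALPL lay between 39.7 and 49.8 CPM over all the SO-L1 bins, from below 0.25% to 20%.

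The share of cells with a UMI depends on depth, so each cell was thinned to 8000 UMIs. Cells with fewer UMIs, 649 of SO-L1 and 520 of ASO-L1, were set aside. ALPG was then found in 13.8% (12.9% to 14.7%) of SO-L1 cells and 31.0% (30.02% to 31.99%) of ASO-L1 cells. ALPP was found in 0.932% (0.703% to 1.21%) and 6.21% (5.71% to 6.74%). ALPL was found in 27.2% (26.1% to 28.4%) and 29.6% (28.6% to 30.6%). Without thinning, the shares were 34.2% and 63.4% for ALPG, 2.29% and 13.3% for ALPP, and 70.8% and 78.6% for ALPL. So ALPL, lower in sum than ALPG, was found in more thinned SO-L1 cells than ALPG and in nearly as many thinned ASO-L1 cells.

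Split by class, thinned ALPG-positive cells were 510 of 1554 below 2% and 304 of 4350 at 2% or more in SO-L1. In ASO-L1 they were 1332 of 2235 (59.6%) and 1323 of 6329 (20.9%). ALPP-positive cells were 51 and 4 in SO-L1 and 392 (17.5%) and 140 (2.21%) in ASO-L1. ALPL-positive cells made up 26.1% and 27.6% in SO-L1 and 25.5% and 31.1% in ASO-L1. No cell type here is certain to lack these genes. Cells with a UMI of PAX6, a neural transcription factor, are given only as a comparison. They cannot measure free RNA, since below 2% in ASO-L1 75.5% of PAX6 cells had ALPG without thinning. At 2% or more, thinned SO-L1 PAX6 cells had ALPG in 4 of 88 (4.55%, 1.25% to 11.2%), beside 7.04% of the other cells. In ASO-L1 they had ALPG in 22 of 155 (14.2%, 9.11% to 20.7%), beside 21.1%. On all UMIs, PAX6 cells at 2% or more held 17.9 CPM of ALPG in SO-L1 and 116 CPM in ASO-L1, with median depths of 59954 UMIs in ASO-L1 PAX6 cells and 56296 UMIs in that class as a whole. The SO-L1 value rested on 1 cell with 135 of the 255 UMIs, and without it the level was 8.50 CPM. At 2% or more, the share of cells with ALPG lay inside the PAX6 interval in SO-L1 and just above it in ASO-L1. How far free RNA set these shares was not tested, and neither is read as a share of expressing cells. The ALPG UMIs of SO-L1 cells at 2% or more were uneven all the same: 38 cells had 10 or more, the highest had 227, and the top 1% of cells held 53.8%.

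Most ALPG UMIs sat in a minority of cells, and ALPL UMIs were spread more evenly. The top 10% of kept cells held 92.7% (SO-L1) and 86.5% (ASO-L1) of ALPG UMIs, and 32.4% and 32.8% of ALPL UMIs. Spread over cells in proportion to depth, ALPG UMIs would have reached 89.8% (SO-L1) and 98.6% (ASO-L1) of cells, against the 34.2% and 63.4% seen. For ALPL such a spread gave 74.3% and 85.0%, close to the 70.8% and 78.6% seen. ALPL was less even in ASO-L1 cells below 2% MT, where such a spread gave 76.4%, against the 61.9% seen. There the top 10% of cells held 47.3% of ALPL UMIs. The highest cell had 430 ALPG UMIs (SO-L1) or 915 (ASO-L1). Cells with 100 or more ALPG UMIs numbered 86 (1.31%) for SO-L1 and 639 (7.03%) for ASO-L1. The SO-L1 cell with most ALPP had 13 UMIs of it, and the ASO-L1 cell 85.

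**Figure D3:**
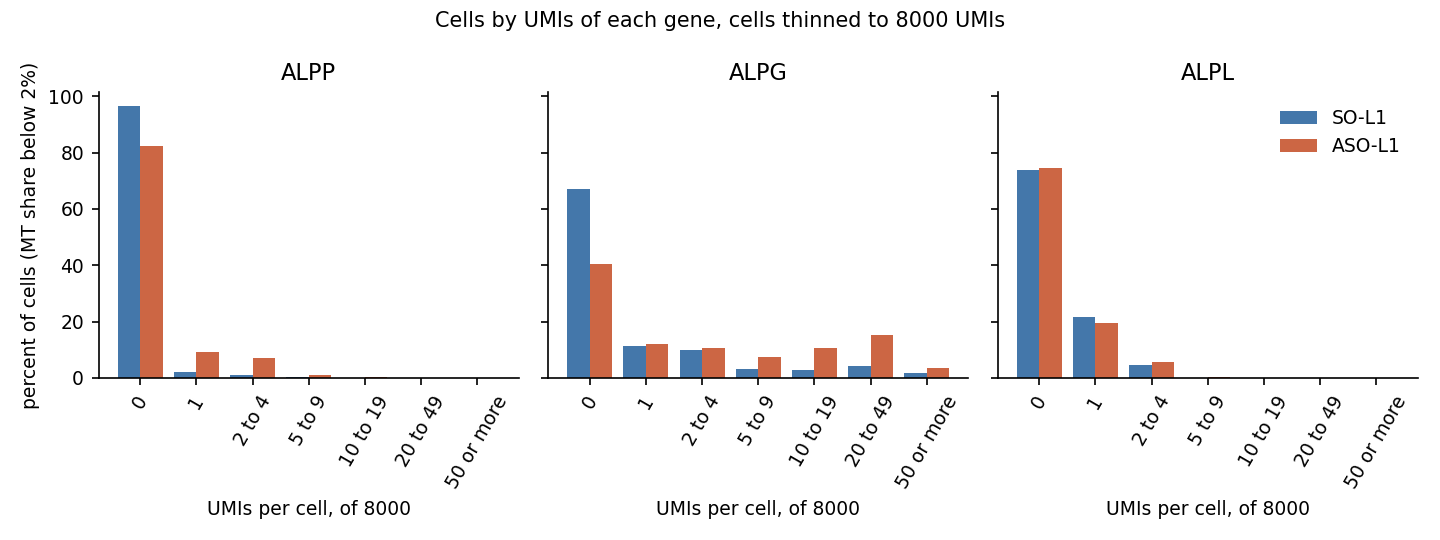
Percent of cells below 2% mitochondrial share (vertical axis) by UMIs of each gene per cell thinned to 8000 UMIs (horizontal axis), in SO-L1 (blue) and ASO-L1 (red). For ALPG, 0 UMIs were found in 67.2% of cells (SO-L1) and 40.4% (ASO-L1), and 50 or more in 1.54% and 3.40%. The ALPL bars of the libraries nearly coincide.

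ALPG-high cells were present in both libraries, in different numbers. Of thinned cells below 2%, those with 20 to 49 ALPG UMIs of 8000 numbered 67 for SO-L1 (4.31%) and 341 for ASO-L1 (15.3%). At 50 or more the counts were 24 of 1554 in SO-L1 and 76 of 2235 in ASO-L1. No thinned cell held more than 6 ALPL UMIs, a value reached in ASO-L1, against 5 in SO-L1. For ALPP the highest thinned cells held 5 UMIs (SO-L1) and 14 UMIs (ASO-L1).

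ALPP was detected almost only in cells that also had ALPG. In thinned SO-L1 cells below 2%, all 51 cells with ALPP had ALPG, beside 16.7 cells from the product of the shares, a ratio of 3.05 (2.28 to 3.99). In ASO-L1 below 2%, 386 of 392 had ALPG, beside 234 from the product (1.65, 1.504 to 1.81). In ASO-L1 at 2% or more it was 122 of 140, beside 29.3 (4.17, 3.47 to 4.97). The reverse did not hold: 28.98% of ALPG cells below 2% in ASO-L1 and 10% in SO-L1 had ALPP. ALPL was found beside ALPG about as often as the product of shares gave, with 118 cells beside 133 in SO-L1 below 2% (0.888, 0.740 to 1.06) and 366 beside 339 in ASO-L1 (1.08, 0.980 to 1.18). ALPL with ALPP was seen in 15 cells beside 13.3 in SO-L1 and in 121 beside 99.8 in ASO-L1 (1.21, 1.01 to 1.44). All 3 genes were found together in 15 SO-L1 and 118 ASO-L1 cells below 2%. The ratios describe these cells and are no test. For ALPP with ALPG the share of cells with ALPG sets a ceiling on the ratio, and the upper limits above lie past it. So these ratios do not rank the sets. Of ASO-L1 cells with ALPP, 98.5% had ALPG below 2% and 87.1% at 2% or more.

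The ratio of ALPP to ALPG nearly matched between the MT classes of a library. Between libraries it differed over all kept cells and in each class, but not in every smaller set. There were 1.30 ALPP UMIs (1.17 to 1.44) per 100 ALPG UMIs in SO-L1 and 3.53 (3.45 to 3.61) in ASO-L1. In SO-L1 it was 1.31 below 2% and 1.24 at 2% or more, and in ASO-L1 3.55 and 3.47. Cells below 2% were also parted by ALPG UMIs, at 10, 50, 100 and 200. The resulting 5 sets, from the lowest, gave 0.671, 1.60, 1.06, 1.18 and 1.55 in SO-L1. The ratio thus varied among SO-L1 cells, and it was 2.45 (1.80 to 3.25) in IL24 cells. The same sets gave 2.60, 3.26, 3.14, 3.93 and 3.52 in ASO-L1, above the SO-L1 value in every set. At 2% or more in ASO-L1 the ratio was not flat: it went from 1.37 in cells with 1 to 9 ALPG UMIs to 2.54 in those with 50 to 99 and 4.52 at 200 or more. Cells with 10 to 49 gave 1.60 (1.29 to 1.96) there, beside 1.93 (0.956 to 3.47) in SO-L1. Below 2%, TPRX1 cells gave 2.19 in SO-L1 and 3.49 in ASO-L1. ZSCAN4 cells gave 2.55 (1.57 to 3.92) and 2.56 (2.32 to 2.82), and KLF17 cells 2.43 (1.80 to 3.20) and 2.59 (2.34 to 2.86). SO-L1 barcodes under 1000 genes, most of them shared with ASO-L1, gave 3.78 (2.93 to 4.80), nearer the ASO-L1 value than that of kept SO-L1 cells.

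**Figure D4:**
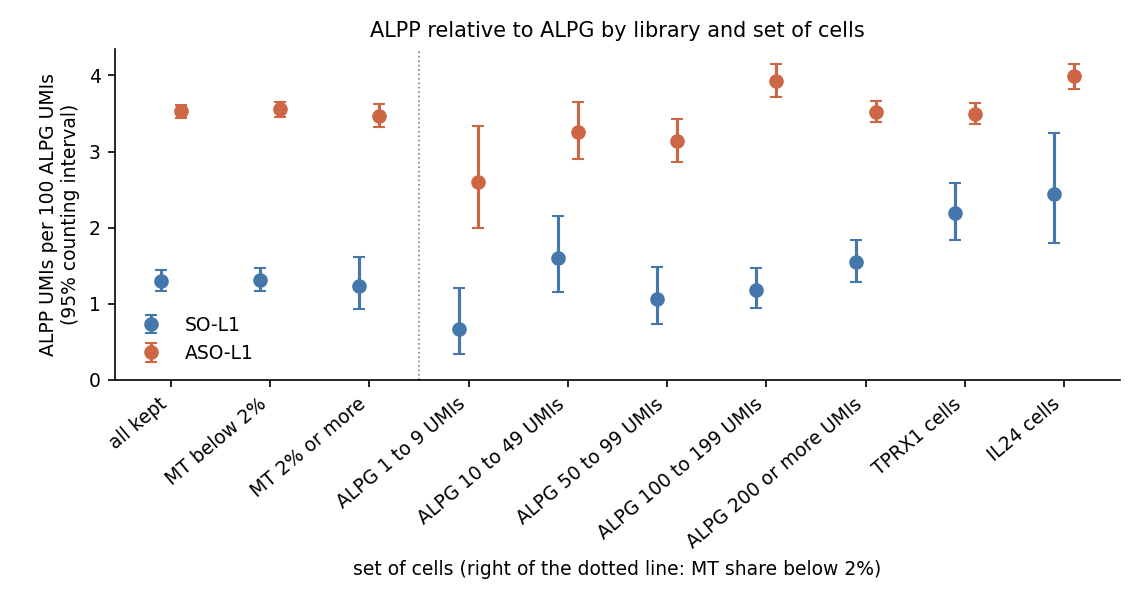
ALPP UMIs per 100 ALPG UMIs (vertical axis) in SO-L1 (blue) and ASO-L1 (red), for all kept cells, both mitochondrial classes, and cells below 2% by ALPG UMIs or by TPRX1 or IL24, with 95% counting intervals. The ASO-L1 points lie between 2.60 and 3.99 and the SO-L1 points between 0.671 and 2.45.

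TPRX1 is a homeobox transcription factor of the human 8-cell stage. Below 2% MT, 78 SO-L1 cells and 436 ASO-L1 cells had a TPRX1 UMI. In ASO-L1, ALPG was at 2956 CPM in TPRX1 cells and 719 CPM in the other cells of the class (ratio 4.11, 4.07 to 4.16). ALPP was at 103 and 26.1 CPM (3.96, 3.74 to 4.19), which put it above ALPL in these cells. ALPL was at 76.3 and 40.8 CPM (1.87, 1.77 to 1.98). Of all genes, 7.29% were at least 1.5-fold higher in TPRX1 cells, and all 3 members were among them. The TPRX1 cells held 53.4% of ALPG UMIs, 52.5% of ALPP UMIs and 34.3% of ALPL UMIs of the class. They had a median of 55034 UMIs, beside 44720 for the class.

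In SO-L1 the same split gave ALPG at 1888 and 301 CPM (6.27, 6.09 to 6.46) and ALPP at 41.3 and 2.95 CPM (14.01, 11.1 to 17.7). ALPL was at 62.2 and 41.1 CPM (1.51, 1.31 to 1.74). There 8.65% of all genes were at least 1.5-fold higher. Between libraries, TPRX1 cells below 2% differed by 2.5-fold for ALPP (2.11 to 2.99), 1.57-fold for ALPG (1.53 to 1.61) and 1.23-fold for ALPL (1.06 to 1.42). These are smaller than the ratios of 8.33 and 3.08 for ALPP and ALPG over the whole class.

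The excess of ALPL in TPRX1 cells was the least firm of these. Counted in thinned cells, it was 29.3% positive with TPRX1 (23.5% to 35.8%) and 25.0% without (23.1% to 27.0%). By TPRX1 UMIs per thinned ASO-L1 cell, ALPL was found in 25.0% at 0, 32.3% at 1, 38.8% at 2 and 20.5% at 3 or more. In the 83 cells with 3 or more TPRX1 UMIs the mean was 0.205 ALPL UMIs, below the 0.324 of cells with 0. In thinned SO-L1 cells ALPL was found in 18.8% of the 16 cells with 1 TPRX1 UMI, beside 26.3% of cells with 0. The means there were 0.375 and 0.317 ALPL UMIs. It was found in 0% of the 3 SO-L1 cells with 2 and of the 4 with 3 or more. Without any shared barcode the ALPL ratio on all UMIs was 1.12 (0.905 to 1.38) in ASO-L1 and 1.32 (1.08 to 1.58) in SO-L1. ALPG in thinned ASO-L1 cells behaved otherwise. It was found in 55.5% of cells with 0 TPRX1 UMIs and 91.4% with 1. With 2 (49 cells) and with 3 or more (83 cells) it was found in 100%. ALPP was found in 14.1%, 47.3%, 48.98% and 49.4%. Means of ALPG were 7.43, 26.5, 29.6 and 25.4 UMIs, so beyond 1 TPRX1 UMI its level showed no further step in ASO-L1. Within SO-L1 the ALPG means rose from step to step, at 2.89, 19.4, 39.7 and 59 UMIs. They rest on only 16, 3 and 4 cells with 1, 2 and 3 or more TPRX1 UMIs.

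At 2% MT or more, TPRX1 cells of the libraries differed in the members. In the 364 ASO-L1 cells ALPG was at 1085 CPM, beside 105 CPM in other cells (10.3, 10.1 to 10.5), and ALPP at 49.8 beside 2.76 CPM (18.1, 16.6 to 19.7). Of all genes 9% were at least 1.5-fold higher there. In the 77 SO-L1 cells ALPG was at 54.1 CPM, beside 21.7 CPM (2.49, 2.16 to 2.85), and ALPP had 1 UMI. A single cell held 103 of their 220 ALPG UMIs, and without it the level was 29.2 CPM and the ratio 1.34 (1.11 to 1.61). After thinning, 14 SO-L1 cells of this class still had a TPRX1 UMI. In SO-L1 5.82% of all genes were at least 1.5-fold higher in TPRX1 cells of this class.

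IL24 encodes interleukin-24, a secreted cytokine of the interleukin-10 family. Below 2% MT, 56 SO-L1 and 684 ASO-L1 cells had an IL24 UMI. In ASO-L1, ALPP was at 64.9 CPM in IL24 cells and 32.4 CPM in the others (2.00, 1.89 to 2.12). ALPG was at 1628 and 1005 CPM (1.62, 1.60 to 1.64). ALPL went the other way, at 39.2 and 53.0 CPM (0.740, 0.696 to 0.786). The pluripotency genes were also lower there, summing to 774 CPM in IL24 cells and 1652 CPM in the others, with all 6 past 1.5-fold. In SO-L1 the ratios were 7.50 for ALPP (5.41 to 10.2), 3.70 for ALPG (3.53 to 3.87) and 0.522 for ALPL (0.359 to 0.735). In ASO-L1 10.7% of all genes passed 1.5-fold upwards in IL24 cells. In SO-L1 22.1% did so and 14.3% passed it downwards, ALPL among the latter. Thinned ASO-L1 cells with 3 or more IL24 UMIs had ALPL in 14.7%, beside 27.2% of cells with 0, and ALPG in 75.9%, beside 55.1%.

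Cells with only TPRX1 or only IL24 differed in all 3 members. Below 2% in ASO-L1, 286 TPRX1 cells without IL24 held 94.4 CPM of ALPP, 2858 CPM of ALPG and 85.4 CPM of ALPL. The 534 IL24 cells without TPRX1 held 47.2, 1131 and 32.0 CPM. The ratios were 2.00 for ALPP (1.86 to 2.16), 2.53 for ALPG (2.49 to 2.56) and 2.67 for ALPL (2.45 to 2.91), in a comparison where 11.6% of genes were at least 1.5-fold higher. In SO-L1, with 73 and 51 cells, they were 1.80 (1.18 to 2.84), 1.80 (1.69 to 1.91) and 2.70 (1.86 to 4.05). In SO-L1 10.2% of genes were as much higher. On all UMIs, both libraries had more ALPL in TPRX1 cells without IL24 than in cells with neither marker. They had less in IL24 cells without TPRX1. Cells with neither marker held 44.7 CPM in ASO-L1 and 41.6 CPM in SO-L1. These sets were not compared at equal depth. Among these ASO-L1 sets the 150 cells with both markers were highest in ALPP and ALPG, at 118 and 3125 CPM, and 98.7% of them had ALPG. Only 5 SO-L1 cells had both, and they were higher still, at 164.9 CPM of ALPP (103.3 to 249.7) and 5247 CPM of ALPG (4865 to 5651), with 1 cell holding 313 of their 700 ALPG UMIs. The 1561 ASO-L1 cells with neither marker held 16.6 CPM of ALPP and 534 CPM of ALPG, and the 1728 such SO-L1 cells held 2.52 and 284 CPM. So the libraries also differed in cells of this class without either marker. Cells with neither marker held 23.9% of the class's ALPG UMIs in ASO-L1 and 66.7% in SO-L1.

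**Figure D5:**
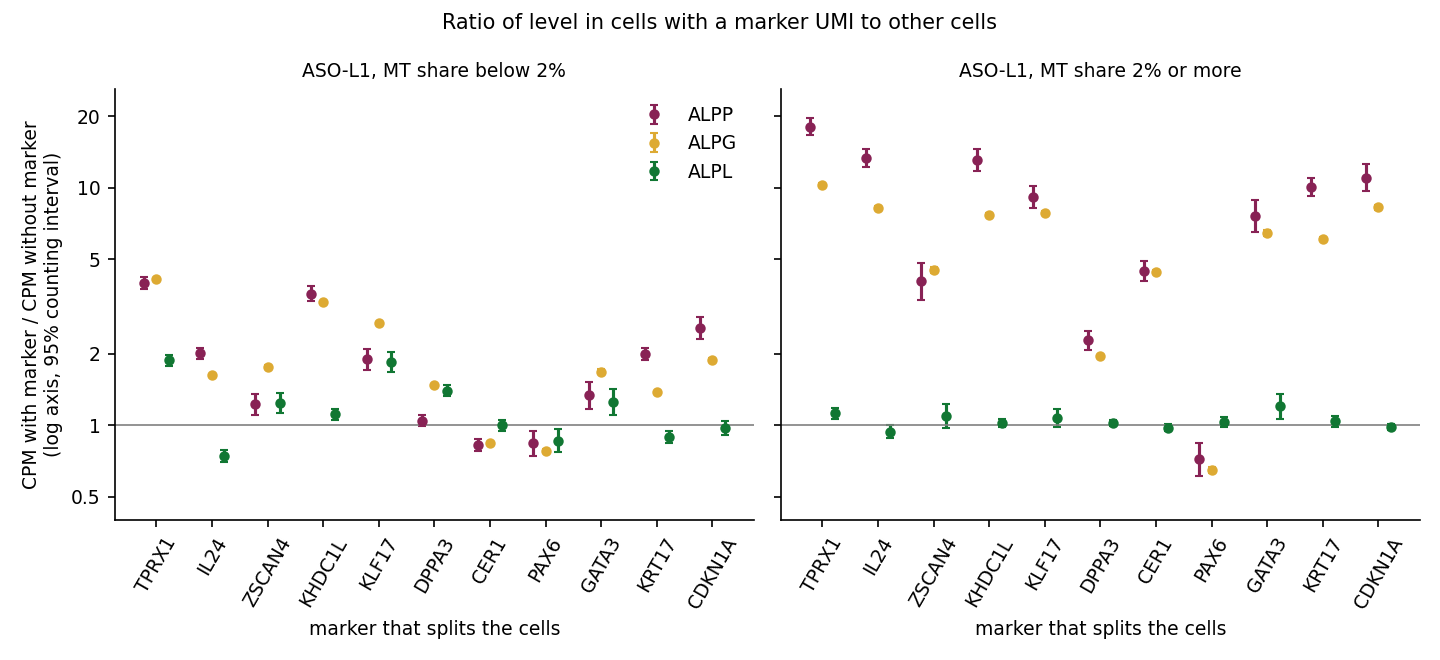
Ratio of level (log axis) in ASO-L1 cells with a UMI of each marker to cells without it, for ALPP (purple), ALPG (yellow) and ALPL (green), below 2% mitochondrial share (left) and at 2% or more (right), with 95% counting intervals. At 2% or more ALPP and ALPG are above 1 for every marker but PAX6, and ALPL stays between 0.938 and 1.20.

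Cells with a UMI of other markers gave several patterns, and ALPL did not always stand apart from ALPP. KHDC1L, a gene of the 8-cell stage, gave ratios below 2% of 3.58 for ALPP, 3.29 for ALPG and 1.11 for ALPL in ASO-L1. KLF17, a transcription factor of naive cells and the early embryo, gave 1.89, 2.68 and 1.84. ZSCAN4, another 8-cell gene, gave 1.22 for ALPP, 1.76 for ALPG and 1.24 for ALPL. CDKN1A, the cell-cycle inhibitor p21, gave 2.56 for ALPP and 1.87 for ALPG, with ALPL at 0.970 (0.906 to 1.04). At 2% or more CDKN1A cells gave 11.0 for ALPP and 8.24 for ALPG in ASO-L1, and 6.78 and 5.94 in SO-L1. CER1, a secreted antagonist of Nodal and BMP signals, split the classes: below 2% ALPG was lower in its cells (0.839, 0.830 to 0.848), and at 2% or more higher (4.41, 4.34 to 4.49). PAX6 cells had less ALPP and ALPG in both classes, at 0.838 and 0.778 below 2% and 0.717 and 0.645 at 2% or more. ALPL was between 0.938 and 1.20 for all 11 markers at 2% or more in ASO-L1. Median depth there was 65580.5 UMIs in TPRX1 cells and 66608 in IL24 cells, beside 56296 for the class, and the part of depth in these ratios was not tested.

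Across single cells, ALPG and ALPP resembled CCNA1 most closely apart from each other. The measure was Pearson's r of log2(UMIs + 1) over 2235 thinned ASO-L1 cells below 2%, among 13236 genes, with the value over 1554 SO-L1 cells beside it. The genes ranked had a UMI in at least 2% of those ASO-L1 cells. MT genes and genes with clone-style names, such as those starting with AC, AL or LINC, were left out. The cells of each set share a library and the values depend on depth, so r is a description. For ALPG the highest were CCNA1, a cyclin of the germ line, at 0.650 (SO-L1 0.719), S100A6 at 0.619 (0.683), ALPP at 0.584 (0.463), S100A14 at 0.558 (0.654) and CDC20 at 0.558 (0.395). For ALPP they were ALPG, CCNA1 at 0.501 (0.466), AGPAT2 at 0.408 (0.373), S100A6 at 0.399 (0.315) and the tetraspanin CD9 at 0.391 (0.309). For ALPL none of the genes ranked passed 0.185 in ASO-L1, which NLRP7 reached with 0.009 in SO-L1. ALPL correlated with ALPG at 0.115 in ASO-L1 and -0.02 in SO-L1, and with ALPP at 0.07 and 0.03. So no close counterpart of ALPL was found by this measure among the genes ranked. ALPL had a UMI in 25.5% of these ASO-L1 cells, with at most 6 in a cell, so a weaker counterpart could be missed.

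Genes that serve alkaline phosphatases were counted against all genes, of which 16.6% were at least 1.5-fold higher and 17.1% lower in ASO-L1. Of 28 measured GPI-anchor genes, 5 were higher and 3 lower, with a median log2 ratio of 0.03, beside -0.02 over all genes; the share that was higher is near that of all genes. PIGW, an acyltransferase of the pathway, was 2.02-fold higher and DPM1, a mannose donor synthase subunit, 1.72-fold higher. GPAA1, part of the transamidase that attaches the anchor, was at 0.480 of the SO-L1 level, and DPM2 at 0.958. None of the 3 zinc transporters passed 1.5-fold, with SLC30A5 at 1.31, SLC30A6 at 0.822 and SLC30A7 at 0.974. PDXK, which makes pyridoxal phosphate, was at 1.10, and PDXP, which removes that phosphate, at 0.826. Of 10 phosphate and pyrophosphate genes 1 was higher and none lower: SLC34A2, a phosphate transporter, at 9.35-fold (7.74 to 11.4), which is also on the 8-cell marker list. ENPP1, which makes the pyrophosphate that ALPL breaks down, was at 0.946, PPA1, a cytosolic pyrophosphatase, at 1.11 and SLC34A1, another phosphate transporter, at 0.682. Of 9 genes of extracellular nucleotides and adenosine, NT5E was higher at 1.64 and SLC29A2 lower at 0.560, and SLC29A1 was at 1.27. Among 21 other GPI-anchored surface proteins 8 were higher and 2 lower, with a median log2 ratio of 0.38. LYPD3 was 4.42-fold and PLAUR, the urokinase receptor, 4.23-fold higher, while CD24 was at 0.864 and TDGF1 at 1.07. Inside ASO-L1, 11 of these 21 were higher and 7 lower below 2% than at 2% or more, beside 27.1% and 12.9% of all genes.

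Lists of cell states were read beside the members, against the same 16.6% higher and 17.1% lower of all genes. Of 20 naive markers 9 were higher and 4 lower in ASO-L1, with a median log2 ratio of 0.45. KLF4 was at 3.89, KLF17 at 3.497, DPPA5 at 1.13 and ST6GAL1 at 0.556. Of 12 primed markers 5 were higher and none lower, with the transcription factor ZIC2 at 4.80-fold, DUSP6, a phosphatase of the ERK pathway, at 3.87-fold and VIM, an intermediate filament, at 3.51-fold. Since ALPP is the placental enzyme, trophoblast markers were given in full. Of 22, 14 had 50 or more UMIs, 6 of them higher and 2 lower, with sums of 558 CPM in SO-L1 and 671 CPM in ASO-L1. KRT18 and KRT19 made up most of that sum, at 345 and 153 CPM in SO-L1 and 445 and 137 CPM in ASO-L1. The early trophoblast factors GATA3, GATA2, TFAP2A and NR2F2 were 1.80-fold, 1.76-fold, 1.73-fold and 2.27-fold higher in ASO-L1, at levels of 0.174 to 1.27 CPM there. KRT7 was 1.74-fold higher, and VGLL1 had 1 UMI in SO-L1 and 34 in ASO-L1. Inside ASO-L1, 10 of 14 were at least 1.5-fold higher below 2% and none lower, beside the 27.1% and 12.9% of all genes given above. In the same comparison 12 of 20 naive markers were higher and 3 lower, and all 8 measured 8-cell markers were higher. The 78 ASO-L1 cells below 2% with a GATA3 UMI held 56.6 CPM of ALPP, beside 42.9 CPM for the class. ALPG was also higher in these cells, at 1974 CPM beside 1206 CPM. They had 2.87 ALPP UMIs per 100 ALPG UMIs, beside 3.55 for the class. They held 5.08% of the class's ALPP UMIs. The part of trophoblast-like cells in the ALPP level was not tested. Genes of the mature placenta were near 0: CGA had 4 and 27 UMIs, CGB5 0 and 5, PSG1 9 and 7, and HSD3B1 1 and 0, in SO-L1 and ASO-L1. CYP19A1, placental aromatase, was at 0.267 of the SO-L1 level, and CCR7 was 14.2-fold higher. Of 9 markers of the 8-cell stage 8 were measured and all 8 were higher, as ALPP and ALPG were, summing to 48.6 CPM in SO-L1 and 256 CPM in ASO-L1.

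Genes near the members did not share a direction. Within 250 kb of ALPP or ALPG, 9 of 11 genes had 50 or more UMIs, and 5 were at least 1.5-fold higher and 3 lower in ASO-L1, beside 16.6% and 17.1% of all genes. Several rest on few UMIs. ALPI was the highest at 5.15-fold, and CHRND, an acetylcholine receptor subunit, was at 3.04-fold and TIGD1, which overlaps EIF4E2 on the opposite strand, at 2.37-fold. EIF4E2, a cap-binding protein and the most abundant neighbour, was at 0.722, and ECEL1 at 0.501. EFHD1 was at 1.60, CHRNG at 1.69 (1.05 to 2.80), AC073254.1 at 0.564 and AC068134.2 at 0.389 (0.228 to 0.654). PRSS56 had 16 and 33 UMIs in SO-L1 and ASO-L1, under the minimum. Within 250 kb of ALPL, 4 of 7 genes were measured, with none higher and 1 lower, LINC02596 at 0.561. RAP1GAP was at 0.900, NBPF3 at 0.802 and ECE1 at 0.725 there, beside 1.15 for ALPL. AL031005.1, AL031728.1 and AL592309.2 had 33 UMIs or fewer.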

How the data were processed

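The deposited values were Cell Ranger counts: per the submitters' processing notes the authors used Cell Ranger 7.1.0 with hg38 to make 1 table of UMI counts per library. Annotation release, intron setting and cell calling were not given in the sources used here. Sequencing went past 65000 reads per cell. There was 1 library per group, with 273349662 UMIs in 6553 kept SO-L1 cells and 499106701 in 9084 kept ASO-L1 cells, and all columns were used.

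Barcodes with at least 1000 genes and an MT- share below 20% were kept. No doublet caller was run, and 1 alternative leaves out the 5% of cells with most UMIs. UMIs were summed per library, class or marker set and divided by the total, which held MT- genes for whole libraries and left them out for classes and marker sets. Intervals (95%) are exact: Poisson for levels, Clopper-Pearson for shares and conditional binomial for ratios. They treat UMIs as independent and cover counting error only. Genes with 100 or more UMIs over both sides formed the background, and list genes needed 50. Shares used 1 seeded thinning to 8000 UMIs. With 1 library per group edgeR and DESeq2 gave scaling factors only, as alternatives, and no test was run.

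Members, markers and lists were chosen with earlier results of these data known. Named genes are the members, ALPI, the 2 list members with the largest change and the 2 with most UMIs, the 5 genes with the highest r, and all neighbours within 250 kb; 1 list member is not reported here. Others named from lists (CGA, CGB5, PSG1, HSD3B1, GATA3, GATA2, TFAP2A, NR2F2, KRT7, VGLL1) were chosen after their values were seen. On simulated Poisson counts, 99% of 2-fold changes passed 1.5-fold and 95% of intervals held the true value. The simulation had no variation between cells or libraries, so it checks the calculation and not the width of the intervals for these data. Transcripts came from GENCODE 29 and coordinates and promoters from RefSeq GRCh38.p14. Tools were Python 3.11.15, numpy 2.4.6, scipy 1.17.1, pandas 2.3.3, Biopython 1.88, R 4.3.3, edgeR 4.0.16 and DESeq2 1.42.0.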

Additional observations from a re-analysis of the deposited data

Results flagged for a closer look

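ALPL in TPRX1 cells at an MT share of 2% or more lay on opposite sides of 1 in the 2 libraries. In SO-L1 it was at 37.3 CPM in the 77 TPRX1 cells and 45.0 CPM in the others, a ratio of 0.829 (0.702 to 0.974). In ASO-L1 it was at 56.2 CPM in 364 cells and 50.2 CPM in the others, a ratio of 1.12 (1.06 to 1.18). The difference between the libraries was not tested, since each group is 1 library.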

How the results depend on the processing

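No paired analysis was possible because each group is 1 library and carries no replicate number. Of 89 alternative values 34 moved by less than their counting interval, 54 moved by more and 1 changed sign. The cause was not tested for any of them. All values here are log2 ratios unless given as shares. Leaving out barcodes kept in both libraries, leaving out those present in both when MT classes are compared, and leaving out the SO-L1 cell with most ALPG UMIs in 4 marker sets (values in the report) were chosen after seeing the data.

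For ASO-L1 over SO-L1, ALPP (3.43) was 3.21 with no cell filter, 3.24 with stricter limits on genes and MT share, 3.05 in thinned cells, 3.24 without the deepest 5% of cells and 2.47 without barcodes present in both. ALPG (1.99) was 1.94, 1.77, 1.74, 1.84 and 1.22 under the same settings, 1.97 with MT genes out of the total, 2.01 with DESeq2's size factors and 1.91 without barcodes kept in both. ALPL (0.20) was 0.10 without barcodes present in both.

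Between MT classes in ASO-L1, ALPP (2.83) was 3.597 with a class limit of 5%, 2.74 with the stricter filter, 2.94 with MT genes in the total 3.27 without barcodes kept in both and 3.58 without those present in both. ALPG (2.80) was 3.27, 2.71, 2.91, 3.09 and 3.19 there, and 2.75 with a limit of 1%. ALPL (-0.06) changed sign to 0.048 with MT genes in the total and was -0.54 without barcodes present in both. In SO-L1, ALPP (4.21) was 4.99 without barcodes present in both, where ALPG (4.13) was 4.63. ALPG was 3.99 and 4.25 with limits of 1% and 5% and 4.19 without barcodes kept in both.

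In ASO-L1 TPRX1 cells below 2%, ALPP (1.99) was 2.11 and ALPG (2.04) 2.10 when 2 TPRX1 UMIs were asked for. In thinned cells ALPG was 1.85 and ALPL (0.90) was 0.40. In IL24 cells, asking for 2 UMIs gave 1.09 for ALPP (1.003) and -0.52 for ALPL (-0.44). Thinned cells gave 1.30 and -0.60. Without barcodes kept in both ALPG (0.69) was 0.67 and ALPL -0.55.

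Shares followed depth. Thinned to 4000 and 16000 UMIs, ASO-L1 cells had ALPP in 3.68% and 8.61% (6.21% at 8000), ALPG in 24.4% and 39.8% (31.0%) and ALPL in 16.4% and 48.8% (29.6%). Co-detection of ALPP and ALPG over the product of shares (1.65) was 1.91 and 1.45. That ratio has a ceiling, which falls as ALPG is found in more cells. ALPP in SO-L1 rests on few UMIs: kept cells at 2% MT or more held 54 in all.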

Other observations

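ALPG and ALPP UMIs were also present in barcodes outside the kept cells. With MT genes left out of the total, SO-L1 barcodes under 1000 genes that also occur in ASO-L1 held 437 CPM of ALPG (417 to 458), and those found in SO-L1 alone held 112 CPM (87.1 to 142.8). ASO-L1 barcodes under 1000 genes held 437.0 CPM of ALPG and 12.4 CPM of ALPP, and ASO-L1 barcodes with an MT share of 20% or more held 293.7 CPM of ALPG. ALPL in ASO-L1 was at 79.9 CPM in the barcodes with 20% or more, beside 50.1 CPM in kept cells.

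In the 12 SO-L1 cells at 2% MT or more with an IL24 UMI, ALPG was at 972 CPM, beside 20.6 CPM in other cells (ratio 47.2, 42.3 to 52.6), and 1 of these cells held 195 of the 367 ALPG UMIs. Without that cell the level was 618 CPM. The 341 such ASO-L1 cells held 960 CPM. SO-L1 cells with a ZSCAN4 UMI in this class, 8 in all, held 399 CPM of ALPG and 0 ALPP UMIs, but 1 cell held 195 of the 204 ALPG UMIs and the others were at 21.8 CPM.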
